A study of Mus musculus with 6 samples.

Results

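Many core proteins of the spliceosomal small nuclear ribonucleoproteins (snRNPs) are encoded by genes that share a few symbol stems. Their transcripts were followed in 4T1, a mouse breast cancer cell line, by RNA sequencing. Members were all rows of the deposited table whose symbol begins with Snrp, Snrnp, Sf3a, Sf3b, U2af, or Prpf or Lsm and a digit, together with Sf1, Eftud2, Cdc5l and Plrg1. This rule, which uses no measured value but was chosen with earlier results of these data known, found 61 of the 18057 genes. It also takes in Lsm genes of other complexes, among them Lsm1, Lsm10, Lsm11 and Lsm14a. The study compared 3 libraries of 4T1 cells given BRQ with 3 of 4T1 cells given DMSO, the usual solvent control, and its title speaks of an inhibitor of DHODH, a mitochondrial enzyme of pyrimidine synthesis. The comparison bears on what BRQ does to transcript levels. The labels state no dose, no duration and no genotype beyond the name of the line, and all 6 titles carry the letters DHO, which are not explained. All libraries come from a single cell line, and nothing in the labels says whether replicates were separate cultures, so p-values measure only the spread between these libraries.

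The spliceosome removes introns from pre-mRNA. It is built from the U1, U2, U4, U5 and U6 snRNPs, each a small RNA wrapped in proteins. U1 marks the 5′ splice site, U2 is brought to the branch point by SF1 and U2AF, and the U4/U6.U5 tri-snRNP joins before U6 replaces U1 and forms the catalytic centre with U2. A ring of Sm proteins closes around a uridine-rich site in U1, U2, U4 and U5, whereas a ring of Lsm2 to Lsm8 binds the uridines at the 3′ end of U6. A minor spliceosome with U11 and U12 removes a small class of introns, and U7, which carries Lsm10 and Lsm11 in place of SmD1 and SmD2, processes histone pre-mRNA. Some of the RNAs that these proteins hold are shown because the groups of genes are ordered by them. The sequences, from GENCODE vM21 (mouse build GRCm38), are written 5′ to 3′ with T for U. Capitals mark the only match to ATTTNT, read on the RNA strand, which lies in the Sm site. Levels of these RNAs themselves were not analysed here.
U1 (Rnu1a1): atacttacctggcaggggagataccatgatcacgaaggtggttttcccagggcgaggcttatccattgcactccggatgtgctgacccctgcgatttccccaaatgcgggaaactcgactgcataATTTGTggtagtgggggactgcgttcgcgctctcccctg
U2 (Rnu2-10): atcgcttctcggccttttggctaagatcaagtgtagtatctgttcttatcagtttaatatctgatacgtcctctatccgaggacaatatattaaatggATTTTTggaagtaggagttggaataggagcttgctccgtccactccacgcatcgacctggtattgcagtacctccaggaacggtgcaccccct
U11 (Rnu11): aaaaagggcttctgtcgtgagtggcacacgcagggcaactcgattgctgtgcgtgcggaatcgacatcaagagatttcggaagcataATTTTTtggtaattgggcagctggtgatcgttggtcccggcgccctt
U12 (Rnu12): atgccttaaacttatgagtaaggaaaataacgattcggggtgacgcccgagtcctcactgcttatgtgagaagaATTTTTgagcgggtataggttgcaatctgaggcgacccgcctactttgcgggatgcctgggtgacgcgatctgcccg
U7 (Rnu7): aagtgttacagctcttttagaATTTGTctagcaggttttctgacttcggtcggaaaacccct

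The values are FPKM, fragments scaled by transcript length and by library depth, as the authors deposited them. Whole reads recovered from the steps between the values summed to 30955094 to 34067493 per library, and a tested member had between 202 reads, its lowest in any library, and a median over members of 2712. Markers of epithelial cells bore out the label, with 7 of 8 above a mean of 1 FPKM, led by Krt18, and summed to 1901 to 1959 FPKM under DMSO and 1405 to 1447 under BRQ. A list of 6 fibroblast markers, of which 1, Pdgfra, reached a mean of 1 FPKM, summed to 4.8 to 5.27 FPKM under DMSO and 7.99 to 8.74 under BRQ, while none of 6 lymphocyte and none of 4 endothelial markers reached that level. In hepatocyte markers and in the macrophage marker Lyz2, BRQ replicates 2 and 3 differed from the remaining 4 libraries. The part of these marker shifts in the results was not tested. A list of 12 hepatocyte markers summed to 14.5 to 17.9 FPKM under DMSO and 14.1 in BRQ replicate 1, but to 0.378 and 0.23 in BRQ replicates 2 and 3. Of these markers 3 had a mean of at least 1 FPKM, and Ttr, Fga, Fgg, Tat, Hnf4a and Cyp3a11 were listed at 0 in both of these libraries. A list of 10 macrophage markers summed to 32.0 to 36.4 FPKM under DMSO and to 67.4, 114 and 106 in BRQ replicates 1, 2 and 3. Of these, 3 had a mean of at least 1 FPKM, and the defining markers Adgre1 and Csf1r stayed below 1 FPKM in all 6 libraries. Of the 3, Cd68 and Cd14 were higher in every BRQ library than under DMSO. Cd68 measured 18.75 to 23.46 FPKM under DMSO and 50.16, 61.23 and 53.34 under BRQ. Lyz2 was 4.443 to 5.383 FPKM under DMSO, 3.564 in BRQ replicate 1, and 35.4 and 36.35 in BRQ replicates 2 and 3. Results are therefore also given with BRQ replicate 1 alone, which shared the rise of Cd68 and Cd14 but not that of Lyz2.

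Genes of this set moved in both directions under BRQ. The largest rises were those of Snrnp25, a protein of the minor spliceosome, and of Lsm10, a protein of the U7 ring, and the largest falls those of Sf3b3, a scaffold of the U2 snRNP, and of Prpf38b. Of the 61 members, 60 averaged 1 FPKM or more in these libraries and were tested with limma on log2(FPKM + 1). The remaining gene, Snrpn, which encodes the SmN variant of SmB, was listed at 0 in 4 libraries and at 0.00716 and 0.00733 FPKM in DMSO replicate 1 and BRQ replicate 2. With p-values adjusted by Benjamini-Hochberg across every gene tested and a threshold of 0.05, 33 members were higher and 21 lower, and 6 were not called. Of all 10552 tested genes 82.4% were called, 48.7% higher and 33.7% lower, so the shares among members (54, 33 and 21 of 60) lay close to this background. Groups of 52 members (86.7%) did not overlap, against 83.7% of all tested genes. A called ratio of mean FPKM of at least 1.5 was found for 13 members upward (21.7%, against 25.1% of tested genes) and for 9 of 60 downward (against 14.2%). What follows therefore concerns which members moved, and not how many.

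Across all tested genes the log2 fold change had a median of 0.12, and across the members of 0.26. In bulk RNA, fewer cells of a kind and less RNA per cell cannot be told apart. Scaling by median ratios or TMM factors brought the median of all genes to 0.0046 and 0.0055 and the members, each time, to 31 higher and 23 lower. Quantile normalization gave 28 and 26, while the split of all tested genes went from 5143 higher and 3555 lower to 4386 and 4348, 4392 and 4343, and 4250 and 4432 under these 3 scalings. When BRQ replicate 1 stood alone for BRQ, 31 members were called higher and 18 lower. That fit has no spread among BRQ libraries: the DMSO libraries alone supply it, and the lone BRQ library, which also entered the full comparison, is assumed to vary like them.

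**Figure D1:**
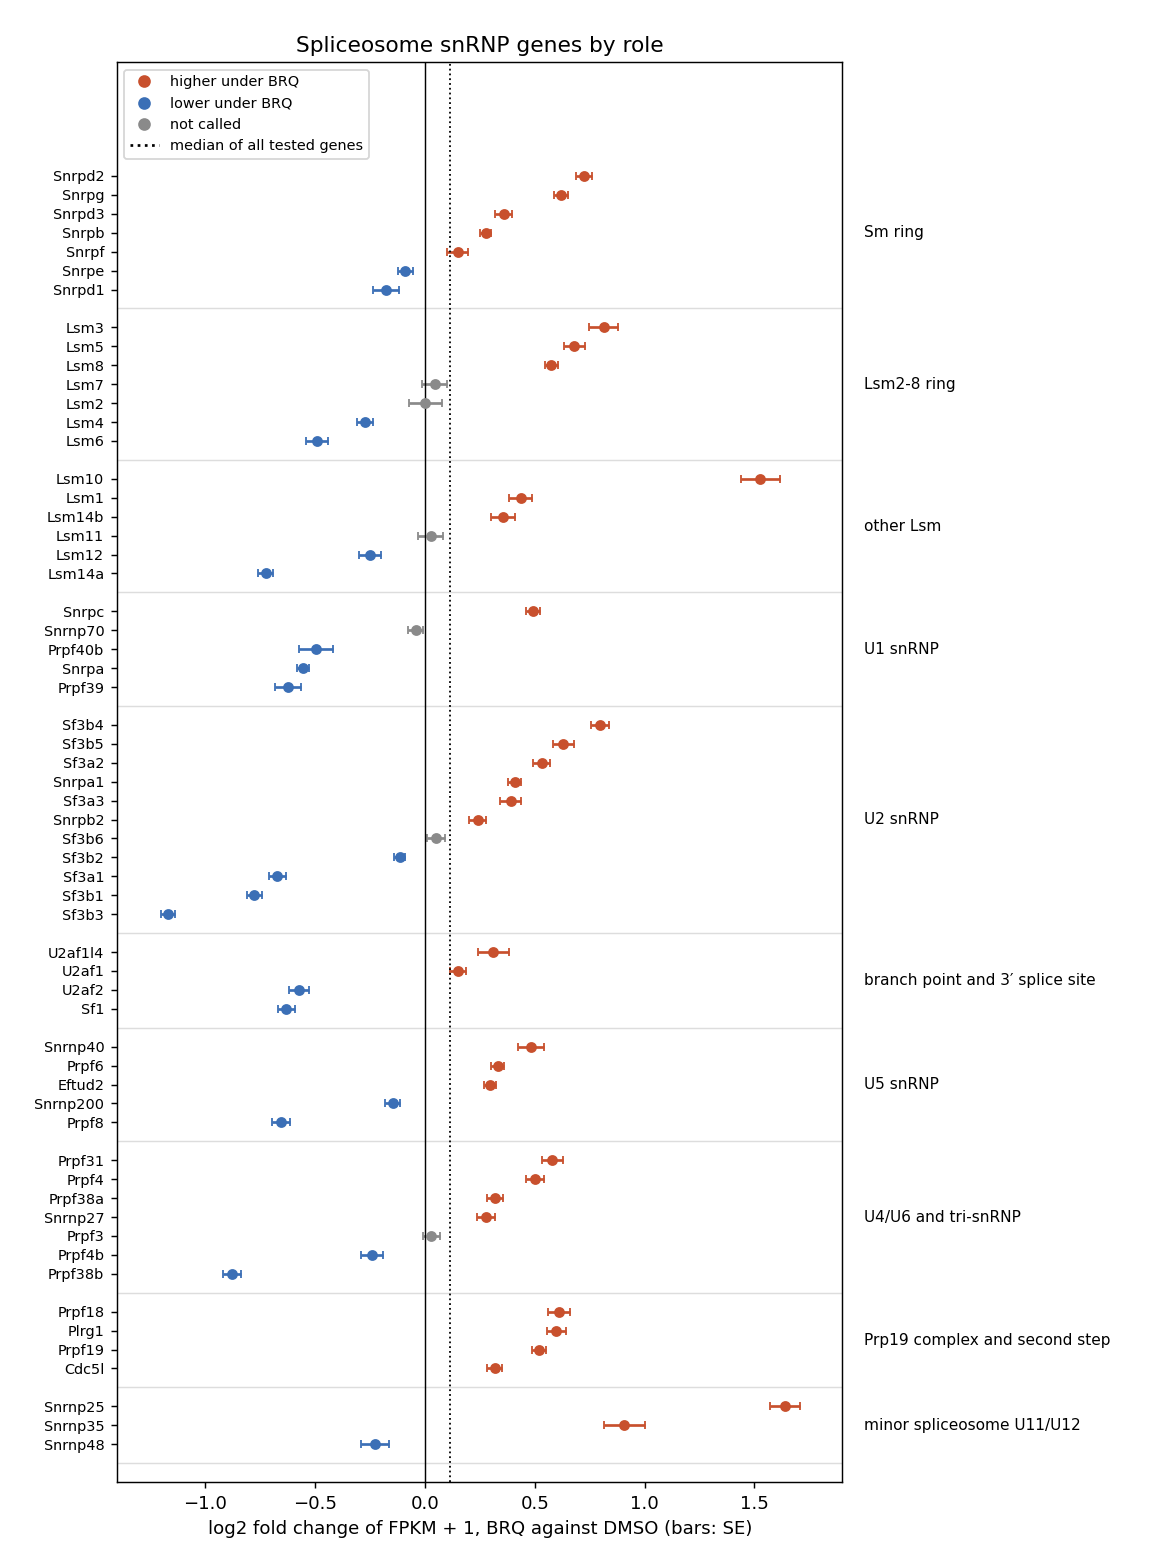
Log2 fold change of FPKM + 1, BRQ against DMSO, for 59 of the 60 tested genes, grouped by role; bars are limma standard errors from 3 libraries a group and colours give the call. Every role group but the Prp19 and second-step group holds both higher and lower genes, and the dotted line marks the median of all tested genes, 0.12.

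Among genes of the Sm ring, which sits on the major snRNAs except U6, Snrpd2 and Snrpg rose most and Snrpd1 and Snrpe fell slightly. Snrpd2, encoding SmD2, measured 102, 107 and 101 FPKM in DMSO replicates 1 to 3 and 171, 178 and 165 in BRQ replicates 1 to 3. All BRQ values lay above all DMSO values, a 1.66-fold rise (log2 change 0.72 with SE 0.0349 and limma adjusted p = 3.04e-08). Snrpg, encoding SmG, had the highest mean level of the ring over the 6 libraries, with 156, 169 and 159 FPKM under DMSO and 246, 249 and 249 under BRQ. It was 1.54-fold higher with separate groups (log2 change 0.62 with SE 0.0316 and limma adjusted p = 4.43e-08). Snrpd3 (SmD3) rose 1.28-fold and Snrpb (SmB) 1.21-fold, from 147 ± 5.63 to 188 ± 7.83 FPKM and from 179.6 ± 2.23 to 218 ± 4.46 FPKM (SD, n = 3). Reads of Snrpb could be shared with its near-identical copy Snrpn. Snrpf (SmF) measured 82.9 ± 4.3 FPKM under DMSO and 92.03 ± 5.6 under BRQ, with overlapping groups (log2 change 0.15 with SE 0.049 and limma adjusted p = 0.0167). Its call was lost under 7 of 16 alternatives, among them without DMSO replicate 2 (0.12), without BRQ replicate 2 (0.10) and with BRQ replicate 1 alone (0.08), and quantile normalization turned its log2 fold change to -0.07. By annotation 85.4% of the exonic bases of Snrpf are shared with genes on the opposite strand. The sources used here do not say whether counting used the strand. Snrpd1 (SmD1) had 61.6, 66.4 and 72.7 FPKM under DMSO and 61.1, 60.6 and 55.2 under BRQ, a small fall (log2 change -0.18 with SE 0.0595 and limma adjusted p = 0.0185) that lost its call without DMSO replicate 3 (-0.12), without BRQ replicate 3 (-0.13) and with BRQ replicate 1 alone (-0.13). Snrpe (SmE) had overlapping groups around 159 ± 5.995 and 149 ± 5.16 FPKM (log2 change -0.09 with SE 0.0353 and limma adjusted p = 0.04). Its call was lost without DMSO replicate 1 (-0.10), DMSO replicate 3 (-0.06), BRQ replicate 2 (-0.07) or BRQ replicate 3 (-0.08), and with BRQ replicate 1 alone (-0.03). Both falls were also not called without a filter on low values (-0.18 for Snrpd1 and -0.09 for Snrpe), and that of Snrpe not under limma-voom (-0.09).

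The ring is assembled from 1 copy of each protein, but its transcripts did not stand at equal levels per length. Under DMSO the most and least abundant of the 7 expressed Sm genes differed 2.5- to 2.88-fold within a library, and under BRQ 4.03- to 4.51-fold. Snrpb stood highest in all DMSO libraries and Snrpg in all BRQ libraries, and Snrpd1 stood lowest in all 6. Summed over the ring, FPKM amounted to 886, 896 and 916 under DMSO and to 1122, 1150 and 1104 under BRQ. The sum over all genes of the table rose as well, from 374509, 377504 and 380140 to 416812, 420687 and 413739. Levels per length rest on the transcript lengths the authors used, which the sources used here do not give.

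In the Lsm2 to Lsm8 ring of U6, 3 genes rose, 2 fell and 2 were not called. Lsm3 measured 42.8, 38.3 and 47.9 FPKM under DMSO and 75.3, 76.1 and 76.9 under BRQ, so every BRQ library lay above every DMSO library (1.77-fold, log2 change 0.81 with SE 0.0649 and limma adjusted p = 1.08e-06). Lsm5 went from 34.1, 32.1 and 35.1 FPKM to 52.4, 53.6 and 58.2 FPKM, again without overlap (1.62-fold, log2 change 0.68 with SE 0.0476 and limma adjusted p = 4.18e-07). Lsm8, the subunit that gives this ring its nuclear place and the one with the highest mean level in it over the 6 libraries, measured 48.3, 47.1 and 47.6 FPKM under DMSO and 72.3, 70.3 and 71.98 under BRQ. Its replicates were tight in both groups (1.5-fold, log2 change 0.58 with SE 0.0288 and limma adjusted p = 3.85e-08). Lsm6 was 1.46-fold lower (11.3 ± 0.418 to 7.78 ± 0.242 FPKM, limma adjusted p = 6.28e-06) and Lsm4 1.21-fold lower (34.4 ± 0.248 to 28.4 ± 0.957 FPKM, limma adjusted p = 5.1e-05). Lsm2 had 43.5, 36.6 and 41.3 FPKM under DMSO and 41.7, 43.8 and 36.1 under BRQ, with overlapping groups (log2 change 0.00 with SE 0.0757 and limma adjusted p = 0.971). Lsm7 overlapped as well (36.02 ± 1.85 and 37.2 ± 2.82 FPKM, limma adjusted p = 0.473). Quantile normalization called both of these lower (-0.21 and -0.16), so their direction depended on the scaling.

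Lsm proteins outside U6 differed among themselves. Lsm10, which with Lsm11 builds the U7 ring, had 8.29, 8.5 and 6.37 FPKM under DMSO and 25.04, 24.4 and 22.5 under BRQ, the second largest rise of all members (3.11-fold, log2 change 1.53 with SE 0.0896 and limma adjusted p = 1.16e-07). Its partner Lsm11 measured 5.3, 5.6 and 5.39 and 5.6, 5.25 and 5.81 FPKM with overlapping groups (log2 change 0.03 with SE 0.057 and limma adjusted p = 0.675). The ratio of Lsm10 to Lsm11 FPKM in a library was 1.42 ± 0.207 under DMSO and 4.34 ± 0.407 under BRQ (SD, n = 3). Lsm1, which replaces Lsm8 in the cytoplasmic ring of mRNA decay, rose 1.4-fold (8.04 ± 0.27 to 11.2 ± 0.531 FPKM, limma adjusted p = 2.12e-05). Lsm14a, a protein of processing bodies and the most abundant member of this set, fell from 43.2, 42.1 and 43.9 FPKM to 26.3, 24.9 and 25.8 FPKM (1.68-fold lower, log2 change -0.72 with SE 0.0354 and limma adjusted p = 3.34e-08). Its paralog Lsm14b rose 1.29-fold (19.3 ± 1.39 to 24.9 ± 0.815 FPKM, limma adjusted p = 0.000125). Lsm12 was 1.2-fold lower (26.6 ± 1.85 to 22.2 ± 0.542 FPKM, limma adjusted p = 0.00109).

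**Figure D2:**
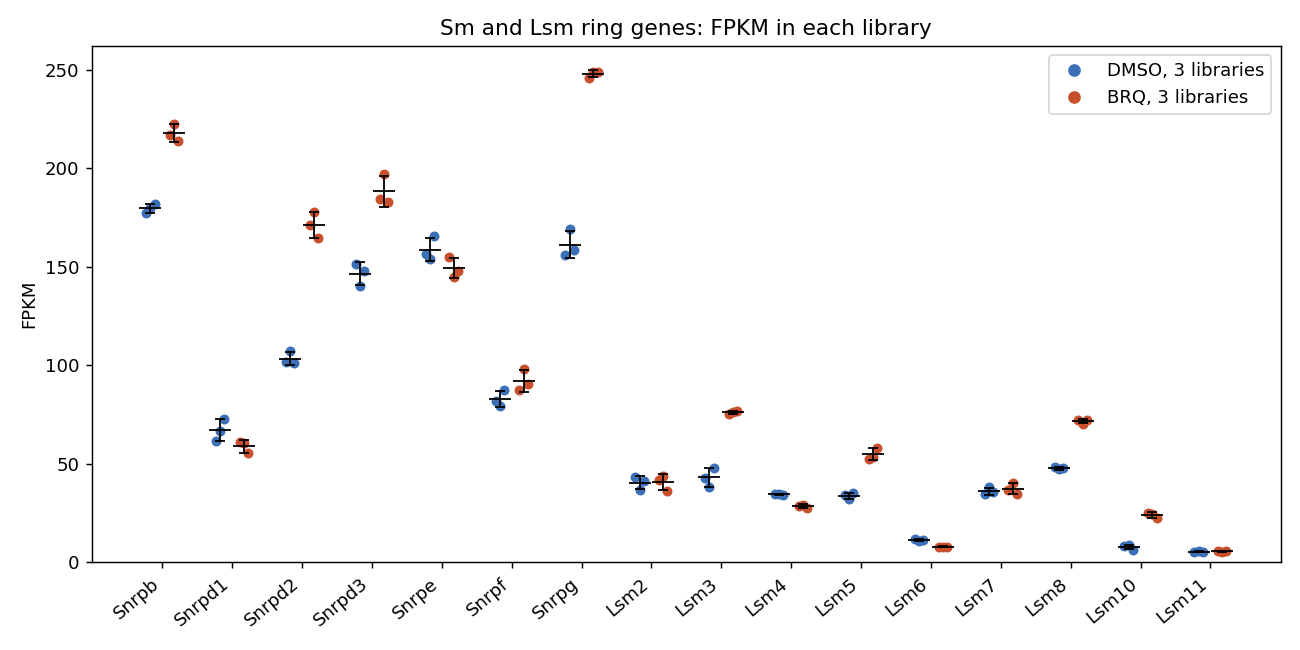
FPKM of Sm and Lsm ring genes in each library; points are the 3 libraries of a group, and black marks give the mean and SD. Snrpg, Snrpd2, Lsm3, Lsm5, Lsm8 and Lsm10 have BRQ points clear of the DMSO points, while those of Lsm2, Lsm7 and Lsm11 overlap.

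Of the 6 genes of the U1 snRNP and its associates, 1 rose, 4 fell and 1 was not called, with a median log2 fold change of -0.32 (-0.44 relative to all tested genes). Snrnp70, encoding the U1-70K protein that binds the stem-loop at the start of U1, had the highest mean level of these genes over the 6 libraries, though Snrpc stood above it in every BRQ library, and measured 99.7, 102 and 104 FPKM under DMSO and 102, 99.6 and 95.2 under BRQ. Its groups overlapped (log2 change -0.04 with SE 0.0333 and limma adjusted p = 0.273), though the 3 other scalings called it lower. Snrpa, encoding the A protein of U1, fell 1.48-fold with very tight replicates (61.9 ± 0.28 to 41.8 ± 0.172 FPKM, limma adjusted p = 3.89e-08). Snrpc, encoding the C protein of U1, which stabilises pairing of U1 with the 5′ splice site, rose 1.41-fold (82.7 ± 3.41 to 117 ± 1.35 FPKM, limma adjusted p = 3.31e-07). The ratio of Snrpc to Snrpa was 1.34 ± 0.0528 under DMSO and 2.79 ± 0.0427 under BRQ. Prpf39, whose yeast counterpart is a U1 component, went from 14.5, 14.7 and 13.3 FPKM to 9.59, 8.4 and 8.54 FPKM without overlap (1.6-fold lower, log2 change -0.62 with SE 0.0601 and limma adjusted p = 4.62e-06). Prpf40b, linked to U1 through its yeast counterpart as well, was 1.5-fold lower (6.42 ± 0.138 to 4.29 ± 0.554 FPKM, limma adjusted p = 0.000155).

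The U2 snRNP, which recognises the branch point through its SF3A and SF3B complexes, divided, with 6 of 11 genes higher, 4 lower and 1 not called. Sf3b3 showed the largest fall of all members. This beta-propeller scaffold of SF3B measured 106, 101 and 103 FPKM under DMSO and 46.6, 44.8 and 44.4 under BRQ, a 2.28-fold fall (log2 change -1.17 with SE 0.0316 and limma adjusted p = 1.01e-09). Sf3b1, the HEAT-repeat protein that clamps the branch helix and is mutated in several cancers, fell from 63.6, 62.7 and 65.6 FPKM to 37.1, 35.8 and 38.00 FPKM (1.73-fold, log2 change -0.78 with SE 0.0343 and limma adjusted p = 1.85e-08). Sf3b2, the most abundant U2 gene, had 137, 137 and 135 FPKM under DMSO and 127, 126 and 125 under BRQ. Its groups did not overlap, but the fall was small (log2 change -0.11 with SE 0.024 and limma adjusted p = 0.00135). In contrast, Sf3b4, an RNA-binding subunit, rose from 58.99, 54.5 and 52.8 FPKM to 96.5, 98.7 and 95.6 FPKM (1.75-fold, log2 change 0.80 with SE 0.0407 and limma adjusted p = 4.43e-08). Sf3b5, a small subunit of the SF3B core, rose from 61.1, 57.6 and 53.1 FPKM to 86.8, 88.5 and 92.1 FPKM (1.55-fold, log2 change 0.63 with SE 0.0481 and limma adjusted p = 7.79e-07). Sf3b6, the p14 protein that touches the branch adenosine, measured 39.9, 39.1 and 36.7 and 38.6, 41.5 and 39.7 FPKM with overlapping groups (log2 change 0.05 with SE 0.0418 and limma adjusted p = 0.284), and was called lower only under quantile normalization among the scalings (-0.15).

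SF3A divided in the same manner. Sf3a1 measured 28.9, 28.2 and 28.2 FPKM under DMSO and 17.9, 17.9 and 16.7 under BRQ, all BRQ values being below the DMSO values (1.62-fold lower, log2 change -0.67 with SE 0.0403 and limma adjusted p = 1.38e-07). Sf3a2 rose 1.46-fold (42.4 ± 1.32 to 61.7 ± 2.42 FPKM, limma adjusted p = 5.03e-07) and Sf3a3 1.32-fold (38.2 ± 1.77 to 50.4 ± 2.89 FPKM, limma adjusted p = 2.88e-05). By annotation 16.1% of the exonic bases of Sf3a2 lie opposite Plekhj1. Snrpa1 and Snrpb2, encoding a pair of U2 proteins that bind a stem-loop of U2 together, rose 1.33-fold (88.3 ± 2.64 to 118 ± 1.9 FPKM, limma adjusted p = 5.95e-07) and 1.19-fold (36.4 ± 1.56 to 43.1 ± 1.03 FPKM, limma adjusted p = 0.000223). The call of Snrpb2 was lost under quantile normalization (0.04). Ratios within a library do not depend on a scaling factor for that library, though quantile normalization can change them. The pairs named here and above were chosen after their values were seen, so they are given without a test. Sf3b4 to Sf3b3 was 0.538 ± 0.0227 under DMSO and 2.14 ± 0.0665 under BRQ, Sf3b5 to Sf3b1 0.897 ± 0.0778 under DMSO and 2.41 ± 0.0664 under BRQ, and Sf3a2 to Sf3a1 1.49 ± 0.0341 under DMSO and 3.53 ± 0.0832 under BRQ (SD, n = 3). Under DMSO Sf3b3 exceeded Sf3b4 in every library, and under BRQ Sf3b4 exceeded Sf3b3 in every library.

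Of the proteins that deliver U2 to the intron, SF1 and the large U2AF subunit fell. Sf1, encoding the protein that first binds the branch point, measured 89.7, 81.3 and 82.7 FPKM under DMSO and 53.6, 53.8 and 55.2 under BRQ, with no overlap (1.56-fold lower, log2 change -0.63 with SE 0.0391 and limma adjusted p = 1.69e-07). U2af2, encoding the subunit that binds the polypyrimidine tract, was 1.5-fold lower (35.3 ± 0.205 to 23.5 ± 1.44 FPKM, limma adjusted p = 1.03e-06). U2af1, encoding the small subunit that reads the AG at the 3′ splice site, was the most abundant of this set, with 88.9, 87.4 and 88.7 FPKM under DMSO and 103, 94.3 and 97.3 under BRQ. Its small rise (log2 change 0.15 with SE 0.0351 and limma adjusted p = 0.00244) was no longer called under the 3 other scalings and had the opposite sign under quantile normalization (-0.04). U2af1l4, a paralog of U2af1, rose 1.27-fold (10.9 ± 0.432 to 13.9 ± 1.55 FPKM, limma adjusted p = 0.00236), but 66.1% of its exonic bases are shared with other genes and its call was lost with BRQ replicate 1 alone (0.16).

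**Figure D3:**
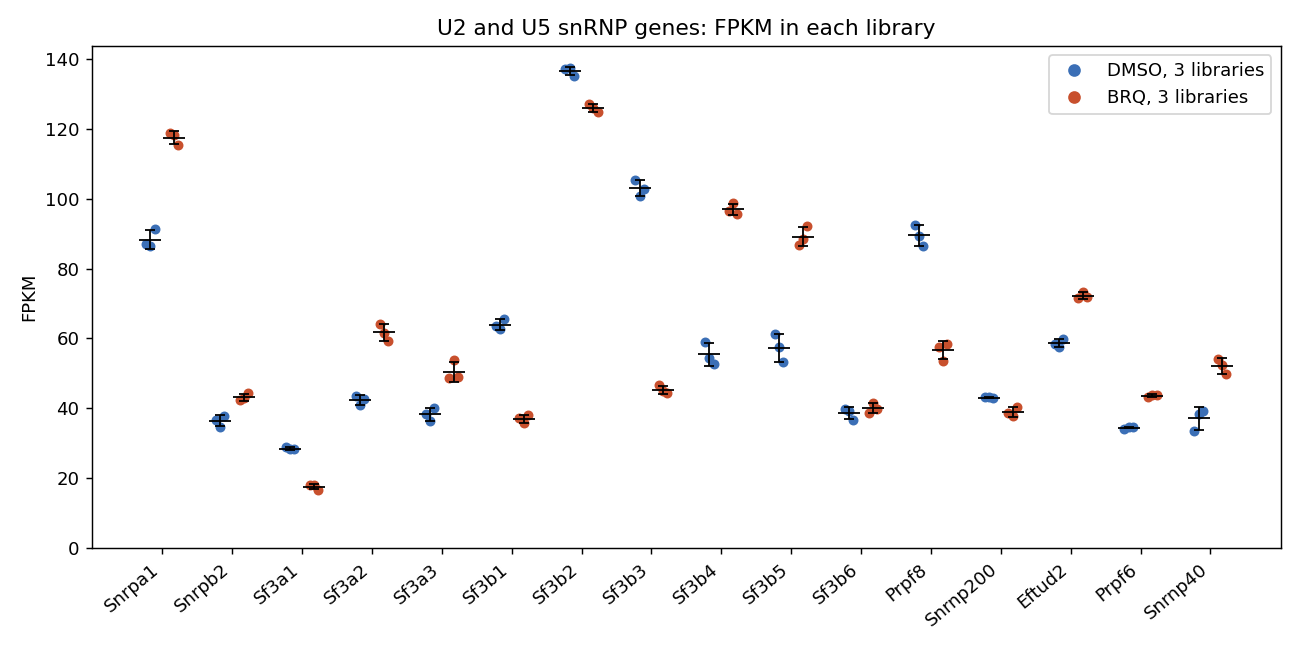
FPKM of U2 and U5 snRNP genes in each library; points are the 3 libraries of a group, and black marks give the mean and SD. BRQ points lie below DMSO points for Sf3a1, Sf3b1, Sf3b2, Sf3b3, Prpf8 and Snrnp200 and above them for the others except Sf3b6, whose points overlap.

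In the U5 snRNP 3 genes rose and 2 fell. Prpf8, encoding the scaffold of the catalytic centre, had the highest mean level of the 5 over the 6 libraries and measured 92.6, 89.4 and 86.6 FPKM under DMSO and 57.6, 53.6 and 58.4 under BRQ. All BRQ values lay below the DMSO values (1.58-fold lower, log2 change -0.65 with SE 0.0396 and limma adjusted p = 1.45e-07). Snrnp200, the helicase that unwinds U4 from U6, was 1.11-fold lower (43.05 ± 0.0489 to 38.8 ± 1.39 FPKM, limma adjusted p = 0.00273). Eftud2, the GTPase that regulates this helicase, rose 1.23-fold (58.6 ± 1.11 to 72.2 ± 1.01 FPKM, limma adjusted p = 5.13e-06), but quantile normalization lost the call (0.06), and 26.9% of its exonic bases lie opposite another annotated gene. Prpf6, which bridges U5 to U4/U6, rose 1.27-fold (34.5 ± 0.272 to 43.6 ± 0.467 FPKM, limma adjusted p = 2.95e-06) and Snrnp40, a WD-repeat protein of U5, 1.41-fold (37.04 ± 3.21 to 52.1 ± 2.23 FPKM, limma adjusted p = 2.78e-05). The ratio of Prpf6 to Prpf8, a pair also chosen after its values were seen, was 0.385 ± 0.0158 under DMSO and 0.772 ± 0.0398 under BRQ.

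Among genes of U4/U6 and the tri-snRNP, 4 rose, 2 fell and Prpf3 was not called. Prpf31 and Prpf4, which with Prpf3 hold the U4/U6 duplex, rose 1.52-fold (15.6 ± 0.877 to 23.7 ± 0.612 FPKM, limma adjusted p = 1.3e-06) and 1.45-fold (13.01 ± 0.325 to 18.8 ± 0.57 FPKM, limma adjusted p = 1.61e-06). Of the exonic bases of Prpf31, 18.1% lie opposite Gm15927 by annotation. Prpf3 itself measured 25.9, 26.3 and 24.8 and 26.4, 25.6 and 26.6 FPKM (log2 change 0.03 with SE 0.0374 and limma adjusted p = 0.468), and was called lower under the 3 other scalings (-0.09, -0.09 and -0.13). Snrnp27, a tri-snRNP protein and the most abundant gene of this set, had 50.2, 48.00 and 51.7 FPKM under DMSO and 63.9, 59.3 and 59.3 under BRQ. The rise (log2 change 0.28 with SE 0.0405 and limma adjusted p = 0.000101) was lost under quantile normalization (0.04). Prpf38b, related to a factor that joins before activation, fell from 40.2, 38.98 and 37.8 FPKM to 21.6, 19.8 and 20.96 FPKM, the second largest fall of all members (1.88-fold, log2 change -0.88 with SE 0.0419 and limma adjusted p = 2.93e-08). Its relative Prpf38a rose 1.25-fold (38.7 ± 0.884 to 48.6 ± 1.32 FPKM, limma adjusted p = 1.02e-05). Prpf4b, a kinase of the tri-snRNP, was 1.2-fold lower (16.9 ± 0.807 to 14.2 ± 0.563 FPKM, limma adjusted p = 0.00102).

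All 4 genes of the Prp19 complex and the second step rose, under each of the 16 alternatives. Plrg1, a WD-repeat subunit of the Prp19 complex and the most abundant of the 4, measured 36.5, 39.95 and 40.6 FPKM under DMSO and 61.2, 58.6 and 58.9 under BRQ, without overlap (1.53-fold, log2 change 0.60 with SE 0.043 and limma adjusted p = 4.96e-07). Prpf19, the ubiquitin ligase that names the complex, rose 1.44-fold (38.7 ± 0.632 to 55.9 ± 1.33 FPKM, limma adjusted p = 1.66e-07) and Cdc5l, its Myb-like partner, 1.25-fold (37.1 ± 0.342 to 46.5 ± 1.15 FPKM, limma adjusted p = 6.63e-06). Prpf18, which acts when the exons are joined, rose 1.56-fold (15.4 ± 1.01 to 24.1 ± 0.432 FPKM, limma adjusted p = 1.17e-06). The median log2 fold change of these 4 genes was 0.56, and 0.44 relative to all tested genes.

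Genes for proteins of the U11/U12 di-snRNP, which recognises introns of the minor class, held the largest rise of all. Snrnp25 measured 10.9, 11.2 and 13.6 FPKM under DMSO and 39.8, 39.6 and 37.6 under BRQ, and its lowest BRQ value was far above its highest DMSO value (3.28-fold, log2 change 1.64 with SE 0.0699 and limma adjusted p = 1.44e-08). Snrnp35, the minor counterpart of U1-70K, had the lowest mean level of the tested members over the 6 libraries and went from 2.18, 1.61 and 1.97 FPKM to 5.04, 4.23 and 4.14 FPKM (2.33-fold, log2 change 0.91 with SE 0.0931 and limma adjusted p = 7.39e-06). Because 1 was added before taking logs, its log2 fold change understates the ratio of means. Snrnp48, which contacts the 5′ splice site of these introns, was 1.18-fold lower (12.7 ± 0.395 to 10.8 ± 1.03 FPKM, limma adjusted p = 0.00792), and this call was lost with BRQ replicate 1 alone (-0.11).

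Seen together, the 61 genes took 0.739%, 0.727% and 0.731% of the recovered reads in DMSO replicates 1 to 3 and 0.695%, 0.688% and 0.686% in BRQ replicates 1 to 3. Their summed FPKM, which is not a share, moved the other way, from 3090, 3055 and 3107 to 3504, 3515 and 3448. The sum over all genes, given above with the Sm ring, rose as well. The 2 measures weight genes differently, reads by transcript length and FPKM per length. What part this had in their different directions was not tested.

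Other genes of snRNP production and of the spliceosome were taken from 9 lists with 116 genes in the table, none a member. Of 115 tested, 76 rose and 26 fell (66.1% and 22.6%, against 48.7% and 33.7% of all tested genes), with a median log2 fold change of 0.31. The lists were chosen with earlier results of these data known, so these shares are given without a test. The 3 other scalings gave 64, 64 and 63 higher and 31, 31 and 33 lower. Among 13 genes of the SMN complex and Sm ring assembly, which load the ring onto snRNA in the cytoplasm, 11 rose and 1 fell (9 and 1 under the other scalings). Gemin2, which holds the Sm proteins before loading, rose 2.43-fold (12.2 ± 0.791 to 29.7 ± 1.01 FPKM, log2 change 1.22 with SE 0.0512 and limma adjusted p = 1.32e-08). Wdr77, the partner of the Sm methyltransferase Prmt5, was 1.27-fold lower (27.6 ± 0.884 to 21.8 ± 2.06 FPKM, limma adjusted p = 0.000634). Of 19 genes of snRNA transcription and 3′ processing 12 rose and 5 fell (9, 9 and 8 rose under the other scalings, and 9 with BRQ replicate 1 alone), with Snapc5 3.71-fold higher (8.71 ± 0.639 to 32.3 ± 1.1 FPKM, limma adjusted p = 1.97e-09) and Ints3, a subunit of Integrator, 1.98-fold lower (16.97 ± 0.441 to 8.57 ± 0.313 FPKM, limma adjusted p = 3.96e-08). Of 6 genes of snRNA export, cap and import 5 rose and none fell, led by the cap-binding gene Ncbp2 (2.51-fold, 21.8 ± 0.622 to 54.7 ± 0.669 FPKM, limma adjusted p = 9.95e-10).

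Partners of SF3B and of U2 divided as well, with 5 of 11 higher and 4 lower (4 and 5 under the 3 other scalings). Phf5a, a small protein of the SF3B core beside Sf3b1, rose 1.98-fold (22.2 ± 0.665 to 43.97 ± 1.99 FPKM, log2 change 0.95 with SE 0.0418 and limma adjusted p = 1.74e-08). Ddx39b, the helicase UAP56 that helps U2 to join the intron, fell 2.74-fold (120.4 ± 2.64 to 43.9 ± 1.26 FPKM, log2 change -1.44 with SE 0.032 and limma adjusted p = 4.52e-10). Of 20 tri-snRNP partners 14 rose and 2 fell (11 and 5 under the other scalings), with Znhit2 2.97-fold higher (9.49 ± 1.09 to 28.2 ± 0.647 FPKM) and Txnl4a, a small U5 protein, 1.8-fold lower (5.06 ± 0.466 to 2.81 ± 0.125 FPKM). Of 24 partners of the Prp19 complex and catalytic factors 17 rose and 5 fell, Bud31 most upward on the log2(FPKM + 1) scale (2.44-fold, 44.8 ± 1.38 to 109.5 ± 2.32 FPKM) though the ratio of means of the scarcer Rnf113a2 was larger (2.66-fold, 0.962 ± 0.49 to 2.56 ± 0.0692 FPKM), and Cwc22, which recruits the exon junction complex, most downward (2.28-fold, 7.65 ± 0.287 to 3.35 ± 0.186 FPKM). Among 7 tested U11/U12 partners 5 rose and 2 fell, with Scnm1 2.16-fold higher (14.8 ± 0.958 to 31.9 ± 0.864 FPKM) and Rnpc3, the U11/U12-65K protein, 1.42-fold lower (5.52 ± 0.23 to 3.89 ± 0.536 FPKM). Of U1 partners 6 of 8 fell and 2 rose. Tia1, which helps U1 to bind weak 5′ splice sites, was 5.91-fold lower (15.8 ± 0.834 to 2.67 ± 0.0932 FPKM, limma adjusted p = 9.08e-10), and the helicase gene Ddx5 1.3-fold higher (207 ± 6.21 to 268 ± 3.23 FPKM, limma adjusted p = 5.77e-07). In the exon junction complex, deposited on spliced mRNA, 5 of 7 rose and 1 fell, and the paralogs Magoh and Magohb differed (1.64-fold higher, 54.6 ± 3.5 to 89.7 ± 3.51 FPKM, and 1.21-fold lower, 12.6 ± 0.969 to 10.4 ± 1.38 FPKM). Under median-ratio, TMM and quantile scaling, 16, 16 and 15 Prp19 partners and catalytic factors rose and 6, 6 and 7 fell. Of the U11/U12 partners 4, 4 and 5 rose and 2 fell each time. For the exon junction complex 4 rose each time, and 1, 1 and 2 fell. Counts of U1 partners stayed the same.

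Members in the longest tertile of coding length mostly fell, and those in the shortest and middle tertiles mostly rose. By annotation (GENCODE vM21, GRCm38), 15 tested members had a coding length above 1851 bases, the bound of the longest tertile of all tested genes, and of these 11 fell and 3 rose (73.3% and 20.0%, against 51.3% and 31.9% of all tested genes in that tertile). In the shortest tertile, up to 1023 bases, 20 of 30 members rose and 7 fell (66.7% and 23.3%, against 64.1% and 19.3%). The middle tertile had 10 of 15 members higher and 3 lower (66.7% and 20.0%, against 50.8% and 30.8%). Across the 60 members, fold change correlated with genomic span at Spearman's rho of -0.47 and with coding length at -0.43. The same values across all tested genes were -0.49 and -0.36, so the members lay close to the value over all genes. Genes share the 6 libraries and are not independent replicates, and no test was made. Members that fell in the shortest tertile of span were Prpf38b (8.92 kb), Snrpa (9.27 kb), Lsm4 (5.5 kb) and Snrpe (6.42 kb). Those that rose in the longest were Cdc5l (41.85 kb), Eftud2 (42.51 kb) and Prpf6, at 63.8 kb the longest of the tested members.

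**Figure D4:**
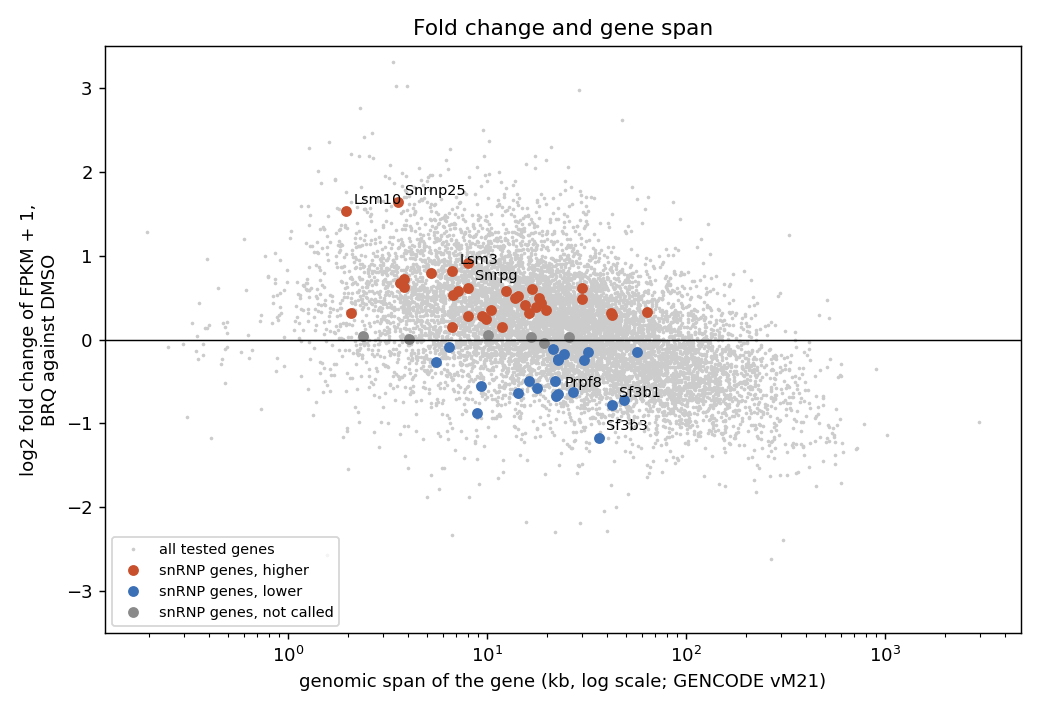
Log2 fold change of FPKM + 1, BRQ against DMSO, against the genomic span of the gene in kb on a log axis. Grey points are all tested genes with an annotated span. Coloured points are the 60 tested members by call, labelled snRNP genes. Fold change correlated negatively with span in both sets (Spearman's rho -0.49 and -0.47), though among the members it did not fall steadily.

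Promoters of the 2 members with the largest rises and the 2 with the largest falls are shown because these genes moved furthest apart. The sequences are RefSeq windows of 250 bases before the start of transcription (GRCm38.p6), written 5′ to 3′ on the gene's strand. Capitals mark matches, on either strand and with no overlap between motifs, to the CCAAT box (CCAAT), the GC box (GGGCGG), the TATA box (TATAAA), NRF1 (GCGCATGC) or E2F (TTTNGCGC). The E-box (CACGTG) was searched as well. So were motifs of ETS factors (CCGGAAGT) and of YY1 (AAGATGGC), and none of these 3 had a match in the windows shown.
Snrnp25, chr11:32205165-32205414, plus strand: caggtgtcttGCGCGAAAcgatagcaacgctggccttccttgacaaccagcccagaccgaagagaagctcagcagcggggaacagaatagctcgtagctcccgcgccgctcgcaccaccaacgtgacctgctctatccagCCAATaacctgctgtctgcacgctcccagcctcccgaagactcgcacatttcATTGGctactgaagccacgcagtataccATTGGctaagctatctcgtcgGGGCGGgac
Lsm10, chr4:126096403-126096652, plus strand: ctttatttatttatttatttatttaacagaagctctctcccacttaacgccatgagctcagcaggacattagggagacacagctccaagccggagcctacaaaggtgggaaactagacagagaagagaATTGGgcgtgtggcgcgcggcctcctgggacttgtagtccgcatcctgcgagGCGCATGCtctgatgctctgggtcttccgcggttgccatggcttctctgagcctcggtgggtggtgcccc
Sf3b3, chr8:110846804-110847053, minus strand: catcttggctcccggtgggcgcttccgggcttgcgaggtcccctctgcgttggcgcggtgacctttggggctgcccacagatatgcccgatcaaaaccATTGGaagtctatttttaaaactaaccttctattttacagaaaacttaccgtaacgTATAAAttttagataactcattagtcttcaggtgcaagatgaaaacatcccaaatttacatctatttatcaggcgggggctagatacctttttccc
Prpf38b, chr3:108911730-108911979, minus strand: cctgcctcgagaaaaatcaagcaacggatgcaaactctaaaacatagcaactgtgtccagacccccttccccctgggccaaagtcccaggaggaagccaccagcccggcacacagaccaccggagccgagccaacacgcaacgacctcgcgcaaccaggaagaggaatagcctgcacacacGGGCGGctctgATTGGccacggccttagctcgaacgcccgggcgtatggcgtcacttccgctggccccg

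The Snrnp25 window held 3 CCAAT matches, a GC box and an E2F match, and the Lsm10 window a CCAAT and an NRF1 match. The Sf3b3 window held a CCAAT and a TATAAA match, and that of Prpf38b a GC box and a CCAAT match. A window was found for 49 members, the untested Snrpn among them. Of these 42.9% held CCAAT and 61.2% the GC box, against 41.4% and 66.8% of the tested genes with a window. The E2F motif was found for 5 members (10.2%, against 2.53%), namely Snrnp25, Prpf38a, Snrpa, Sf3b6 and Snrnp70, of which 2 rose, 1 fell and 2 were not called. The NRF1 motif was found for 6 (12.2%, against 5.47%), namely Lsm10, Lsm8, U2af1l4, Sf1, Lsm2 and Snrnp70, of which 3 rose, 1 fell and 2 were not called. The E-box was found for 4 (8.16%, against 10.3%), the ETS motif for 4 (8.16%, against 7.44%), TATAAA for 4 (8.16%, against 7.3%) and the YY1 motif for 1 (2.04%, against 2.46%). Of 26 members with a window that rose and 16 that fell, the E-box was in 0 and 3, and TATAAA also in 0 and 3. The ETS motif was in 2 and 2, CCAAT in 13 and 6 and the GC box in 15 and 10. No test was made on these small counts. These matches describe letters in the windows and do not show that a factor binds there.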

How the data were processed

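RNA sequencing libraries of 4T1 cells, 3 given DMSO and 3 given BRQ, were grouped and numbered by their labels. TRIzol was used to isolate total RNA, per the labels' protocols. The tools fastp and HTSeq and the build GRCm39 are named in the submitters' processing notes. The sources used here give neither aligner nor annotation nor whether counting was stranded or unique, so reads of paralogs, processed pseudogenes and overlapping genes may be shared. The authors deposited FPKM for each library, and 8 further columns of values, which match none of the samples, were not used.

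FPKM are not counts, so log2(FPKM + 1) was tested with limma 3.58.1 in R 4.3.3 (eBayes with a trend, two-sided, no covariates) for the 10552 genes that averaged 1 FPKM or more, with Benjamini-Hochberg adjustment over all of them and calls at an adjusted p under 0.05. Whole reads were recovered from the steps between values for all 10552 tested genes, up to a common divisor per gene, within 0.00047 reads. Fit and recovery were checked on simulated data. Few genes changed in that simulation, so it does not cover the fit where most genes are called, as here. TMM factors were computed from the recovered reads. Members, roles and lists were chosen with earlier results of these data known. Values in every library are given for the 8 largest rises and falls, the most abundant member of each role group and the most abundant uncalled members. The values of 1 member are not reported here. From each further list the largest rise and fall are named. Of 120 list entries 116 were in the table. Between replicates, chi-square per gene was 4.71 to 5.54, above counting noise, so none was a repeated library. Alternatives were another pseudocount (0.1), no filter, a filter at 5 FPKM, 3 scalings, a replicate block, a robust prior, limma-voom on recovered reads, each library left out and BRQ replicate 1 alone.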

Additional observations from a re-analysis of the deposited data

How the results depend on the processing

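Of the 54 called members, 45 had the same direction and call under every one of the 16 alternatives that tested them, and the exceptions were Snrpd1, Snrpe, Snrpf, Snrpb2, Snrnp27, Snrnp48, Eftud2, U2af1 and U2af1l4. Total counts of called members, of called list genes pooled and of all called genes stayed within 1.5 times the reported values. Counts of single role groups and lists did not always: lower calls went from 2 to 5 for tri-snRNP partners under the 3 scalings, from 2 to 4 in the Lsm2 to Lsm8 ring under quantile normalization and from 2 to 0 in the Sm ring with BRQ replicate 1 alone. The members' median log2 fold change was 0.13 under median-ratio scaling, 0.13 under TMM scaling and 0.0413 under quantile normalization, and the median log2 fold change of all tested genes was 0.0046, 0.0055 and -0.0084 there and 0.0137 without a filter. Under median-ratio, TMM and quantile scaling the sign turned for Lsm11 (-0.0825, -0.0816 and -0.0286), Lsm2 (-0.122, -0.121 and -0.206), Lsm7 (-0.0806, -0.0796 and -0.155), Prpf3 (-0.0939, -0.0929 and -0.135) and Sf3b6 (-0.0754, -0.0744 and -0.151), none of them called as reported, and under quantile normalization also for Snrpf (-0.0741) and U2af1 (-0.0400). These scalings take off the shift of all genes by construction. Lsm2 was -0.000995 under limma-voom, and Snrnp70 was 0.00622 with BRQ replicate 1 alone. With 1 library left out, Lsm2 ranged from -0.065 to 0.082, Lsm7 ranged from -0.0119 to 0.0929 and Lsm11 ranged from -0.00155 to 0.0601. The replicate numbers did not pair the libraries (correlations of same-numbered deviations 0.004, -0.03 and -0.03), and with the replicate block 33 members were called higher and 21 lower, as without it. Each tested member had at least 202 reads in every library.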
